A study of Mus musculus with 12 samples.

Results

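The 9 genes Grina, D2hgdh, Klhdc3, Bag2, Gtf2h4, Fuom, Bscl2, Dnajb4 and Gipc1, of 12212 gene symbols counted, were chosen by their measured levels: their reads were nearly missing from every library of a group of germinal center B cells and present in another group. Their levels in those groups are therefore a description and carry no test. Counts were scaled to a common library size and are given as CPM, read counts relative to the library total. A gene is called off in a library below 0.5 CPM, and on in a group where the mean is above 5 CPM. By these thresholds 8 of the 9 genes were off in all 3 libraries of a group and on in another. Of these, 7 were off in light zone cells of untreated mice (D2hgdh, Klhdc3, Bag2, Gtf2h4, Fuom, Dnajb4 and Gipc1) and 1, Grina, in dark zone cells of untreated mice. Bscl2 did not meet the threshold: its highest library in the light zone control group was at 2.87 CPM, and none of its 12 values was under 0.5 CPM.

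The cells came from the spleen of NZBWF1/J mice, hybrids used as a model of lupus. Germinal center B cells were sorted by flow cytometry by zone, and 1000 cells went into each library. With 3 libraries each, the 4 groups were the control and the treated cells of the dark zone and those of the light zone. Treated mice had 6 doses of 200 ug CTLA4-IG, a fusion protein that blocks costimulation through CD28, together with 6 doses of 250 ug Anti-CD40L, an antibody to the ligand by which T cells engage CD40. These were given over 2 weeks from 18 weeks of age. Control mice were untreated, and their age was not given in the labels. Whether the replicates were separate mice is not stated, so a p-value here reflects only how far these libraries spread, which may be technical.

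Dark zone cells of a germinal center proliferate and hypermutate their immunoglobulin genes, and in the light zone the resulting cells compete for antigen and for T cell help. The 9 genes are not a pathway. They encode broadly used proteins of protein folding and turnover (Bag2, Dnajb4, Klhdc3), transcription and DNA repair (Gtf2h4), membranes and lipid storage (Grina, Bscl2), small-molecule metabolism (D2hgdh, Fuom) and receptor traffic (Gipc1). In libraries of few cells, a transcript present in few copies can be lost before the cDNA is amplified, which is known as dropout, and a lost transcript reads as 0 whatever the depth of sequencing.

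Total counts ran from 16032746 to 26837714 per library, so that 3 counts, the limit that a count of 0 allows, correspond to 0.112 to 0.187 CPM before the scaling factors. This limit covers counting error only, since amplified reads without molecular identifiers are not independent molecules. The 7 B cell markers sought were measured in all groups, at a summed level of 5088 to 9120 CPM. Of the 12 libraries, 3 stood apart: replicates 1 and 2 of dark zone treated cells, with replicate 2 of the light zone treated ones. They had 12188 to 12195 symbols with counts, against 11384 to 11960 in the other 9, a summed level of 8 germinal center markers of 1540 to 2048 CPM against 3284 to 4584, and a summed level of 8 macrophage and monocyte markers of 70.0 to 173 CPM against 6.31 to 66.0. All 3 are treated libraries, so each gene below is also given in the other 3 treated libraries. In bulk RNA of sorted cells, fewer cells of a type and less RNA per cell cannot be told apart.

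Protein folding and turnover. Bag2, a co-chaperone that regulates the ATP cycle of HSP70 and inhibits the ubiquitin ligase CHIP, lies on mouse chromosome 1 from 33745484 to 33757795 (mm10). It was at 0, 0 and 0.0463 CPM in light zone control replicates 1, 2 and 3, a total of 1 read. Light zone treated libraries held 35.6, 16.6 and 22.6 CPM. Dark zone treated libraries were at 10.6, 20.1 and 26.7 CPM and dark zone control libraries at 0.137, 29.2 and 8.38 CPM. The light zone control libraries thus lay under all other 9, but dark zone control replicate 1 was also off while the other replicates of its group were on. The pooled counts of the light zone treated libraries were 1220-fold those of light zone control, with an exact 95% interval of 219-fold to 48204-fold that covers counting error only and rests on that 1 read.

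Dnajb4, an HSP40 protein that hands substrates to HSP70, lies on chromosome 3 from 152178511 to 152210302. It had no read in any light zone control library. In dark zone libraries it was at 10.9, 2.02 and 4.40 CPM in control and at 4.06, 3.89 and 21.3 CPM in treated samples, and in light zone treated libraries at 0.117, 4.99 and 2.94 CPM. It was off in light zone treated replicate 1, and the light zone treated group, with a mean of 2.68 CPM, did not reach the on threshold. Against 3 counts over the light zone control group, the pooled counts of the dark zone control libraries were at least 95.9-fold higher. Those of the dark zone treated libraries were at least 161-fold higher and those of the light zone treated libraries at least 60.7-fold. These bounds hold for the pooled counts of a group, not for each library.

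Klhdc3, a Kelch-repeat receptor by which CUL2 ubiquitin ligases recognise the C-terminal ends of proteins, lies on chromosome 17 from 46674550 to 46680914. It was low in both control groups, at 0.0685, 0.0506 and 0.902 CPM in dark zone and at 0.131, 0 and 0.185 CPM in light zone libraries. Dark zone treated libraries were at 45.5, 34.9 and 8.89 CPM, and light zone treated libraries at 4.04, 37.6 and 48.0 CPM. All 6 treated libraries lay above all 6 control libraries, which is a description, since the gene was chosen by these levels. The share of all symbols that did so is not given here. Dark zone control replicate 3, at 0.902 CPM, alone kept that group from being off as well. The treated counts were 295-fold those of control in the light zone (counting interval 135 to 805) and 87.4-fold in the dark zone (55.9 to 145.4).

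Transcription and repair. Gtf2h4 encodes the p52 subunit of TFIIH, the complex that opens DNA at promoters and in nucleotide excision repair, and lies on chromosome 17 from 35667730 to 35673739. Light zone control libraries were at 0, 0.172 and 0.139 CPM, a total of 6 reads. Light zone treated libraries were at 22.2, 18.4 and 23.1 CPM, dark zone control libraries at 3.08, 18.6 and 6.84 CPM and dark zone treated libraries at 15.5, 29.7 and 2.24 CPM. The light zone treated libraries lay close together (21.2 ± 2.52 CPM, SD, n = 3), and no library outside light zone control was off. The light zone treated counts were 185-fold those of light zone control (counting interval 85.0 to 506).

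The stretches before the RefSeq starts of Gtf2h4 and Klhdc3 (GRCm38.p6) are shown because both hold letters that few promoters hold. In capitals are matches, on either strand, to ACTACA followed after any 3 bases by CCC, core letters of an element that the zinc finger factor ZNF143 is known to bind. The motif was chosen after the sequences were seen. It occurs in 1.92% of all RefSeq windows of 250 bases before a start, and 2 of the 7 genes with a window hold it. The Gtf2h4 window (chr17:35673744-35673993, minus strand) holds it 2 times, once on each strand. The Klhdc3 match is shown in 30 bases (chr17:46680980-46681009, minus strand), which lie in exons of Mea1 on the opposite strand.
Gtf2h4: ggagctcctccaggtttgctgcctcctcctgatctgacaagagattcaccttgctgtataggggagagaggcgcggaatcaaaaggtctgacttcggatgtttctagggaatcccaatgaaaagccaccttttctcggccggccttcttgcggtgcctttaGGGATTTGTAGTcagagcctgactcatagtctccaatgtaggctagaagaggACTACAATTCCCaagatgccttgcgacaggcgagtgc
Klhdc3: ccacaaagaACTACATTACCCagtgaccct

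Membranes and lipid storage. Grina (also called TMBIM3), a multipass membrane protein of the Bax inhibitor family, lies on chromosome 15 from 76246764 to 76249904. It is the only one of the 9 that was off in all 3 dark zone control libraries, at 0, 0 and 0.265 CPM. Dark zone treated libraries were at 16.4, 10.9 and 32.3 CPM, light zone control libraries at 2.16, 2.58 and 8.48 CPM and light zone treated libraries at 23.5, 18.1 and 12.3 CPM. The groups did not overlap between control and treated libraries in either zone, and light zone control lay between dark zone control and both treated groups. The dark zone treated counts were 202-fold those of dark zone control (counting interval 86.2 to 622).

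Bscl2 encodes seipin, the endoplasmic reticulum protein at which lipid droplets form, and lies on chromosome 19 from 8837467 to 8848683. It was low but measured in light zone control libraries, at 1.31, 2.87 and 0.880 CPM. It was at 34.0, 34.8 and 41.8 CPM in light zone treated, 36.3, 5.62 and 14.6 CPM in dark zone control and 30.5, 38.8 and 42.2 CPM in dark zone treated libraries. All 9 of these were above 5 CPM. Its 22.2-fold ratio of light zone treated to control counts (counting interval 18.0 to 27.8) rests on 89 reads in the lower group, the most of any of the 9 genes.

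Metabolism. D2hgdh, the mitochondrial enzyme that oxidises D-2-hydroxyglutarate to 2-oxoglutarate, lies on chromosome 1 from 93824909 to 93852348. It had no read in any light zone control library and was at 9.53, 8.38 and 4.54 CPM in light zone treated libraries. Their pooled counts were at least 138-fold higher than 3 counts over the control group, a bound for the group and not for each library. Dark zone treated libraries were at 3.57, 7.17 and 2.88 CPM. Dark zone control libraries were at 1.64, 0.253 and 0.159 CPM, so 2 of these 3 were off, and 5 of the 6 control libraries were off in all.

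Fuom, the fucose mutarotase that interconverts the ring forms of L-fucose in its salvage, lies on chromosome 7 from 140096770 to 140102441. Light zone control libraries were at 0, 0.115 and 0 CPM, a total of 2 reads. Dark zone control libraries were at 5.83, 16.7 and 4.67 CPM, and no other group had a mean above 5 CPM. Dark zone treated libraries were at 1.93, 2.24 and 9.09 CPM and light zone treated libraries at 4.68, 1.11 and 8.41 CPM. Replicate 3 of each treated group lay above 2 of the 3 dark zone control libraries. The dark zone control counts were 257-fold those of light zone control (counting interval 70.8 to 2129).

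The windows before a start of Fuom and of Dnajb4 are shown because, of the 7 genes with a window, only these 2 hold the core of a heat shock element, by which HSF1 is known to act. The core, in capitals, was searched as GAANNTTC or TTCNNGAA on both strands, and 12.8% of all windows hold it. The Fuom window is chr7:140102442-140102691 on the minus strand. The Dnajb4 window, chr3:152193846-152194095 on the minus strand, precedes the inner of its starts and lies in an intron of its longer transcripts. The window before the outer start of Dnajb4 has no match to this core, and neither does that of Bag2. Other motifs were searched as well. Among them, TGACGT, the core of a cAMP response element, occurs in 6.47% of all windows. Both Dnajb4 windows hold it, and it is not in capitals. A match is letters in a window, not a shown binding site.
Fuom: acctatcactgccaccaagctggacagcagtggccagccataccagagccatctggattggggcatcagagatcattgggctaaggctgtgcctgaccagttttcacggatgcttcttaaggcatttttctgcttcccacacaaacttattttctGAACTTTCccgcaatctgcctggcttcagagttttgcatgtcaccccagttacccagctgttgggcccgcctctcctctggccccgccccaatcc
Dnajb4: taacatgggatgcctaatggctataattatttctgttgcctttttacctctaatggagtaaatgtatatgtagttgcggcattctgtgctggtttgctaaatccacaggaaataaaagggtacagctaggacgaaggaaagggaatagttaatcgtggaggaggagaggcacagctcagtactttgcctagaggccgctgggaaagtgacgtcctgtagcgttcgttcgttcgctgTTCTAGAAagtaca

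Receptor traffic. Gipc1, a PDZ-domain scaffold that couples membrane receptors to the motor myosin VI, lies on chromosome 8 from 83652677 to 83664694. Light zone control libraries were at 0.196, 0 and 0 CPM, a total of 3 reads. Dark zone libraries were at 42.1, 46.2 and 21.4 CPM in control and 56.6, 50.8 and 20.8 CPM in treated samples. Light zone treated libraries were at 0.117, 47.5 and 14.97 CPM, so that replicate 1 was off and lay inside the range of the control libraries. With a mean of 25.1 CPM over all 12 libraries, it was the most abundant gene in the whole data set to be off in all 3 libraries of a group. The dark zone control counts were 657-fold those of light zone control (counting interval 224 to 3188).

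**Figure D1:**
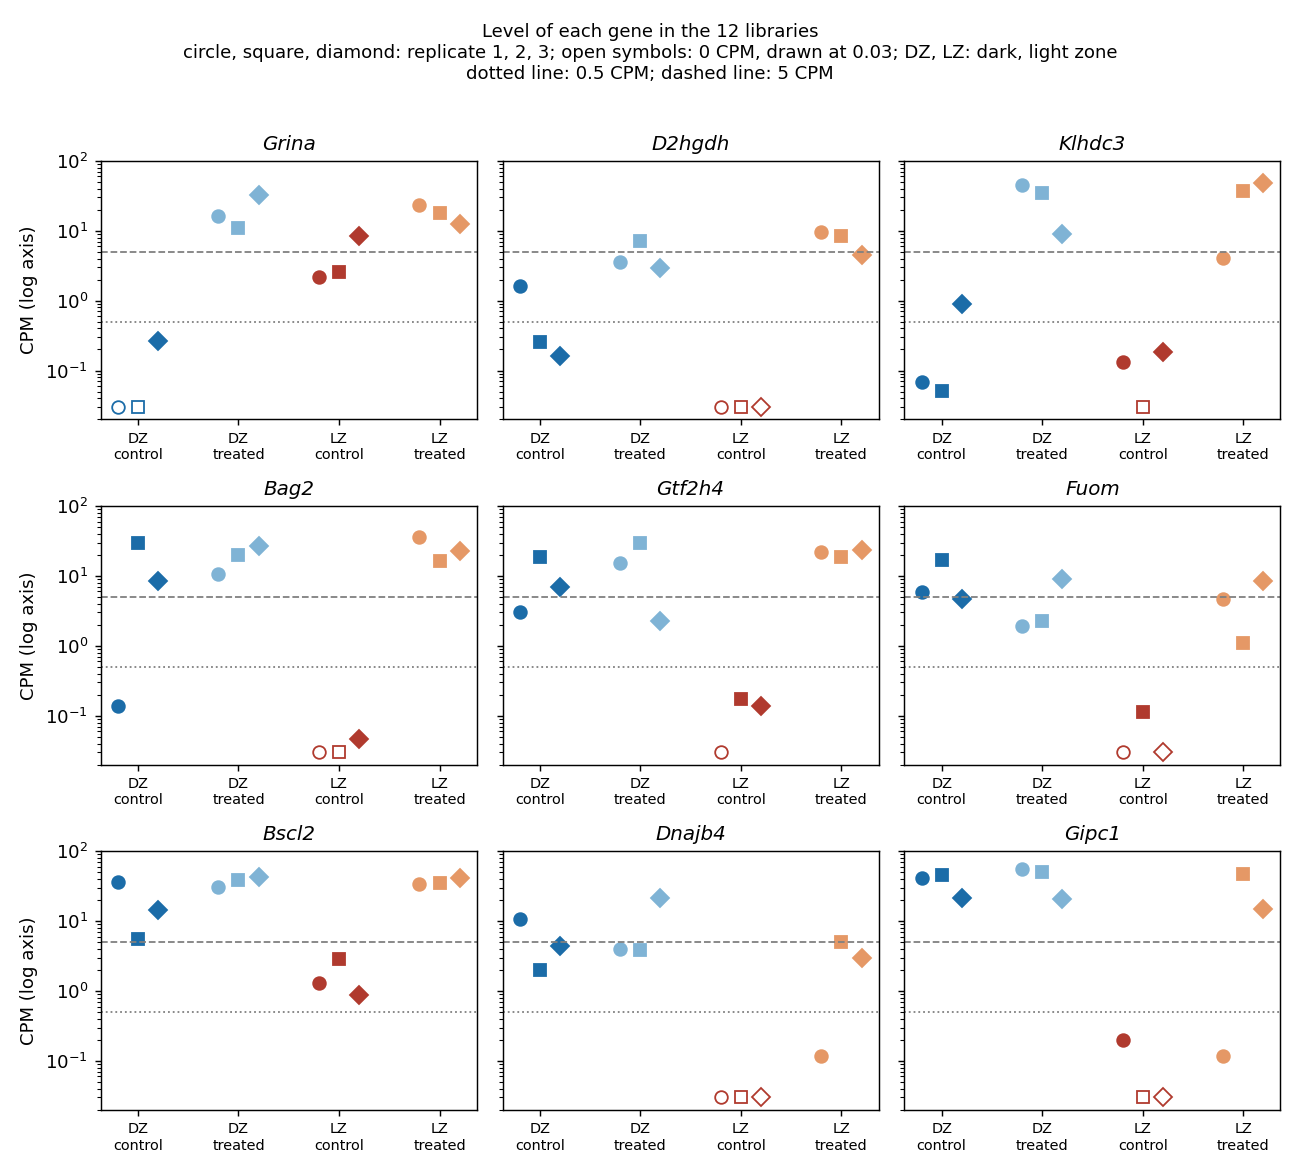
Level of the 9 genes in CPM (log axis) in each of the 12 libraries, by group; symbols mark the replicate, open symbols are values of 0 drawn at 0.03, and lines mark 0.5 and 5 CPM. Points of light zone control lie under the lower line for 7 genes and points of dark zone control for Grina, and single points of other groups lie there too, as for Bag2, Dnajb4 and Gipc1.

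By library, 7 of the 9 genes were off in each light zone control library. In dark zone control replicates 1, 2 and 3, 3, 3 and 2 of the 9 were off. In treated libraries, Dnajb4 and Gipc1 were off in light zone treated replicate 1, and none of the 9 was off in the other 5. In the 3 treated libraries that did not stand apart (dark zone replicate 3, light zone replicates 1 and 3), Grina was at 12.3 to 32.3, D2hgdh at 2.88 to 9.53, Bag2 at 22.6 to 35.6, Bscl2 at 34.0 to 42.2 and Klhdc3 at 4.04 to 48.0 CPM. Gtf2h4 was at 2.24 to 23.1, Fuom at 4.68 to 9.09, Dnajb4 at 0.117 to 21.3 and Gipc1 at 0.117 to 20.8 CPM there. Gipc1 was higher in the 3 libraries that stood apart (47.5 to 56.6 CPM), while Bag2 (10.6 to 20.1) and Fuom (1.11 to 2.24) were lower, and for the other 6 genes the ranges overlapped. With those 3 libraries left out, 8 of the 9 genes still met the thresholds, with 1 dark zone treated library left. The off groups of these 8 are control groups and kept all their libraries, so this bears on the on threshold only.

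How often a gene was off in a whole group was counted over all 12212 symbols. In 325 (2.66%) a group was off and another on, and in 217 (1.78%) the off group was light zone control. Of the 9 genes, 5 were off in light zone control and on in light zone treated libraries (D2hgdh, Klhdc3, Bag2, Gtf2h4, Gipc1), where 118 symbols (0.966%) were. In the pair with dark zone control, 5 were (Bag2, Gtf2h4, Fuom, Dnajb4, Gipc1), beside 69 symbols in all (0.565%). In the pair with dark zone treated, 5 were (Klhdc3, Bag2, Gtf2h4, Dnajb4, Gipc1), beside 116 (0.95%). Grina is 1 of 54 symbols (0.442%) off in dark zone control and on in dark zone treated libraries, and 1 of 79 (0.647%) in the pair with light zone treated. None of the 9 was among the 50 symbols (0.409%) off in dark zone control and on in light zone control. With dark zone treated as the off group, 0.0491%, 0.131% and 0.0819% of symbols were on in dark zone control, light zone control and light zone treated libraries (0.237% in any). With light zone treated as the off group, 0.147%, 0.0901% and 0.115% were on in dark zone control, dark zone treated and light zone control libraries (0.328% in any), and none of the 9 was among them in either case. Dark zone control was the off group for 137 symbols (1.12%). The low counts with a treated off group changed without the libraries that stood apart, when fewer libraries also had to be off. Without light zone treated replicate 2, light zone treated was the off group for 570 symbols in place of 40, with 2 libraries left, and the total was 747 in place of 325. Without light zone treated replicate 1 or 3, which also leaves 2 libraries, the total was 322 or 318. Without all 3, light zone treated was the off group for 517 and dark zone treated, with 1 library left, for 745 in place of 29, while light zone control was for 212 and dark zone control for 134. Without dark zone treated replicate 1 or 2 alone, dark zone treated was the off group for 54 or 45. Since the rule used these same values, nothing is read from the members' counts.

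**Figure D2:**
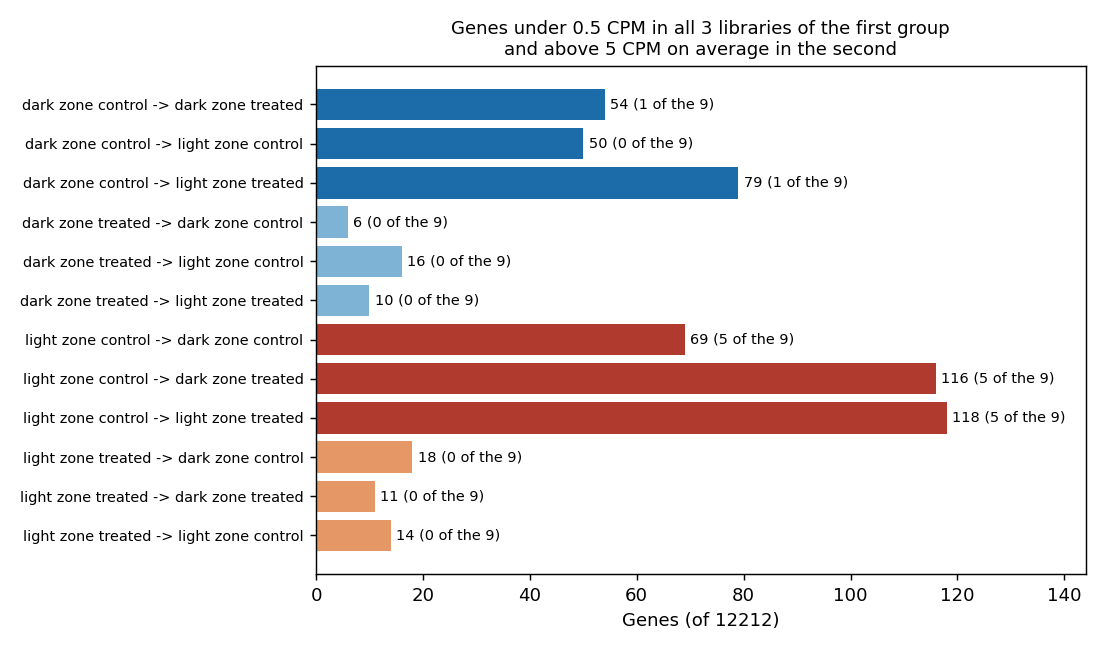
Number of symbols under 0.5 CPM in all 3 libraries of the first group and above 5 CPM on average in the second, for each ordered pair of groups, with the count of the 9 genes in brackets. The bars with light zone control as the off group hold 69 to 118 symbols, those with dark zone control 50 to 79, and those with a treated group 6 to 18; without light zone treated replicate 2, those with light zone treated hold 259 to 369.

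Bag2, Gtf2h4 and Gipc1 are 3 of 16 symbols that were off in light zone control and on in all 3 other groups. At the edge of the threshold in light zone control, Pigt, Zfp820 and Zgpat were just inside, each with a highest library of 0.463 CPM, and Cntf, Zswim1 and Klc1 just outside, at 0.510, 0.517 and 0.517 CPM. When every library of the on group had to be above 5 CPM, 7 symbols remained for light zone control against light zone treated (0.0573%), with Bag2 and Gtf2h4 among them. The other symbols with the highest levels were Vgll4, a TEAD cofactor (0 in light zone control, 32.0 ± 16.6 CPM in light zone treated), Aph1a, a gamma-secretase subunit (at most 0.0463, against 14.6 ± 5.05 CPM), and Fbxo34, an F-box gene (at most 0.371, against 14.0 ± 6.05 CPM; SD, n = 3 each). Beside Grina, 6 symbols were off in dark zone control and above 5 CPM in every dark zone treated library, led by Adprhl2, an ADP-ribose hydrolase, at 26.8 ± 5.34 CPM, Lrrc75a at 15.4 ± 11.4 CPM and Jmjd7 at 13.0 ± 8.17 CPM. Only 1 symbol other than Gipc1, Gm11423, was off in light zone control and above 5 CPM in every dark zone control library (13.4 ± 4.995 CPM). None of the 9 was among the 3 symbols off in dark zone control and above 5 CPM in every light zone control library, Cd3g (21.9 ± 4.03 CPM), 2310022B05Rik (15.8 ± 8.37 CPM) and Cahm (14.1 ± 3.64 CPM).

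Being off in single libraries was far more frequent than being off in a whole group. Over the 4 groups together there were 39329 cases of a symbol with a library above 5 CPM in a group, each symbol counted once per group. In 13.2% of these cases a library of the same group was under 0.5 CPM. The share was 13.3% in dark zone control, 7.01% in dark zone treated, 14.1% in light zone control and, at the top, 18.2% in light zone treated libraries. Bag2 in dark zone control and Gipc1 in light zone treated are such cases. In 4.44% of the light zone control symbols with a library above 5 CPM, 2 of the 3 libraries were off. The 13.2% over the 4 groups became 9.95% without the 3 treated libraries that stood apart. That left 1 dark zone treated library, with no other of its group to differ from.

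The share of symbols off in a library fell with their level. Among the 1876 symbols with a mean of 2 to 5 CPM, where D2hgdh, Fuom and Dnajb4 lie, light zone control replicates 1, 2 and 3 were off in 26.01%, 26.7% and 21.6%, and all 3 were off together in 148 symbols (7.89%). Among the 2037 symbols of 10 to 20 CPM, where Grina, Klhdc3, Bag2 and Gtf2h4 lie, they were off in 9.33%, 10.6% and 4.66%, and all 3 together in 7 symbols (0.344%), 3 of which are Klhdc3, Bag2 and Gtf2h4. The other 4 were Usf1, Mrm3, Pigt and Irs2, named after their values were seen. In the same range the dark zone control replicates were off in 8.59%, 13.0% and 0.540%, and all 3 together in 4 symbols (0.196%), namely Adprhl2, Grina, Cd3g and Irs2. Among the 2363 symbols of 20 to 50 CPM, 2 (0.0846%) were off in all light zone control libraries, Gipc1 and Vgll4. In the 3 libraries that stood apart, no symbol of 10 to 50 CPM was off.

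**Figure D3:**
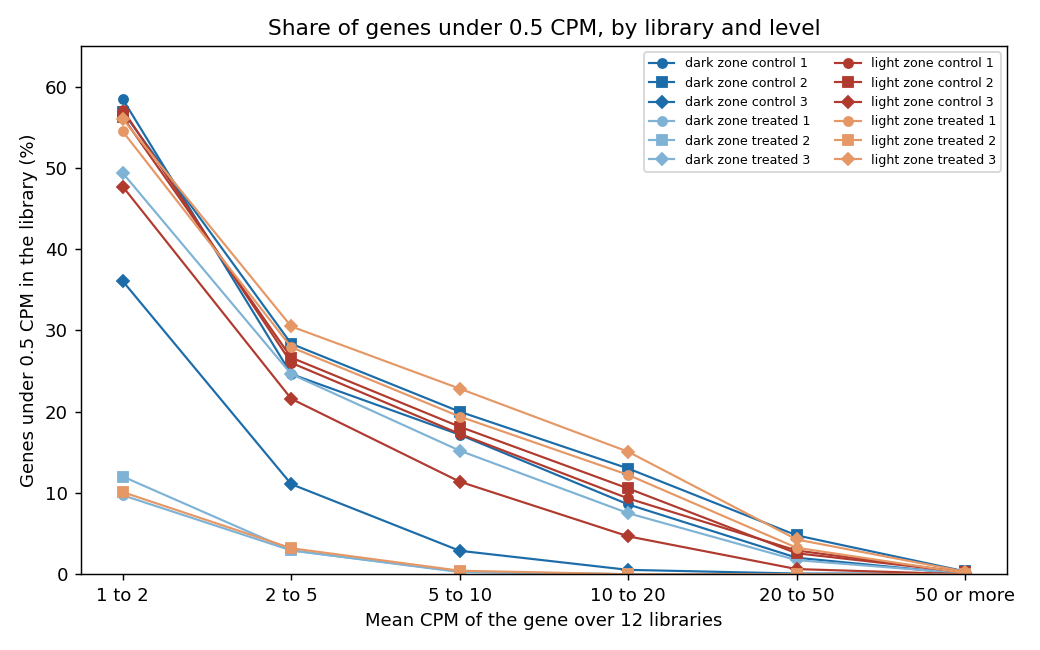
Share of symbols (%) under 0.5 CPM in each library, in 6 ranges of the mean CPM over all 12 libraries; lines are libraries and colours are groups. At 10 to 20 CPM the share runs from 0% in the 3 treated libraries that stood apart and 0.540% in dark zone control replicate 3 to 15.1% in light zone treated replicate 3, with light zone control at 4.66% to 10.6%.

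Where few libraries of a gene were off, they seldom made up a whole group. Among the symbols with a mean of 5 to 50 CPM, 321 were off in exactly 3 of the 12 libraries, and in 3 of these (0.935%) the 3 libraries were a group. They were Grina, Gtf2h4 and the T cell gene Cd3g. Bag2 and Gipc1 are 2 of 13 symbols, of 199 off in 4 libraries, with a whole group off, and Klhdc3 is 1 of 18 of the 117 off in 5 (6.53% and 15.4%). The share rose with the number of off libraries, to 23 of 62 symbols off in 6 (37.1%), 14 of 23 off in 7 (60.9%), and each of the 3 off in 8 and the 5 off in 9. Such a rise is built into the count, since 9 off libraries of 12 must include a whole group. The shares that a random placement of off libraries would give were not computed. The shares therefore do not set the named genes apart. Where 1 or 2 libraries were off (830 and 539 symbols), no whole group can be.

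**Figure D4:**
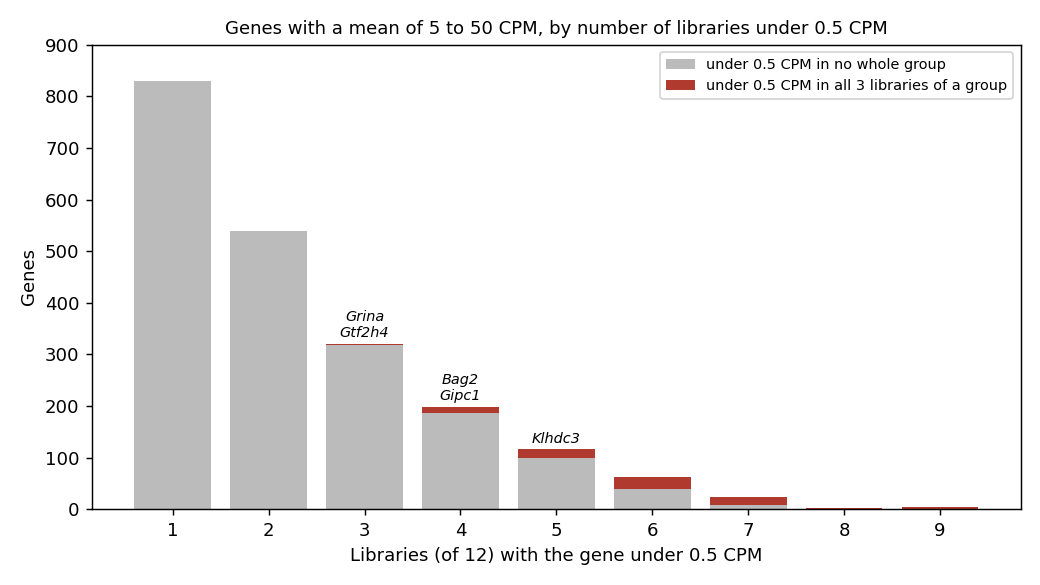
Number of symbols with a mean of 5 to 50 CPM (vertical axis) by the number of libraries in which they were under 0.5 CPM; the coloured part was under 0.5 CPM in all 3 libraries of a group, and the 4136 symbols off in no library, Bscl2 among them, are not drawn. Grina and Gtf2h4 stand at 3 libraries, Bag2 and Gipc1 at 4 and Klhdc3 at 5, while the other 3 genes that met the thresholds have means under 5 CPM.

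The design gives 4 comparisons: treatment in each zone, and light zone against dark zone within the control libraries and within the treated ones. All 9 genes passed the filter on low counts and were tested. By edgeR's quasi-likelihood test no gene of 12081 passed an adjusted p of 0.05 in any of them (0%). Unadjusted p-values under 0.05 numbered 1075 for treatment in the dark zone, 889 in the light zone, 595 for zone in control and 249 for zone in treated libraries. DESeq2 called 75, 222, 112 and 1 genes. In the comparisons that the rule used, its calls hold 8 of the 9 genes as higher under treatment in the light zone (all but Grina; 1.59% of all genes were called higher and 0.229% lower) and 7 as lower in light zone control than in dark zone control, with Grina higher (0.631% of genes were called lower and 0.287% higher). For treatment in the dark zone they hold Grina and Klhdc3 as higher (0.418% higher, 0.197% lower), and between the zones under treatment none of the 9 (0% higher, 0.00819% lower). Calls in the comparisons that the rule used were largely fixed by how the genes were chosen. They are a description, and setting them beside the shares over all genes tests nothing.

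Comparisons without the group in which a gene was off are less tied to the rule, but they hold groups whose mean above 5 CPM also served to choose the gene, so their tests are not independent of the choice. Where the only such group of a gene is in a comparison (D2hgdh between the treated zones, Fuom under treatment in the dark zone), its value is a description with no test. Between light and dark zone treated libraries the other 8 genes had an adjusted p of 1 by edgeR. Their log2 differences (light minus dark) ran from -1.85 (SE 1.29) for Dnajb4 to 0.43 (SE 1.05) for Gtf2h4, beside 0.72 (SE 0.94) for D2hgdh, and no gene of the 9 separated the groups, as 2.24% of all symbols did with the light zone higher and 3.57% with it lower. For treatment in the dark zone, D2hgdh had a log2 difference of 2.73 (SE 1.01, edgeR adjusted p = 0.528), with all 3 treated above all 3 control libraries, as in 12.5% of all symbols (11.1% had all 3 treated libraries lower). Bscl2 differed by 0.98 (SE 0.70, edgeR adjusted p = 0.585), Dnajb4 by 0.75 (SE 1.25), Gtf2h4 by 0.73 (SE 1.05), Bag2 by 0.60 (SE 1.24) and Gipc1 by 0.22 (SE 1.38). The edgeR adjusted p of the last 4 ran from 0.791 to 0.959, and the groups of all 5 overlapped. Fuom differed by -1.04 (SE 1.12), and its groups overlapped as well. For treatment in the light zone, Grina had a log2 difference of 2.03 (SE 1.13, edgeR adjusted p = 0.696), with all 3 treated above all 3 control libraries, as in 5.8% of all symbols (5.45% lower). In the comparisons that the rule used, 7 other members separated treated from control libraries in the light zone (all but Gipc1). Between the zones in control libraries, Grina separated the groups with the light zone higher (4.45% of all symbols) and 7 members with it lower (5.58%).

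Neighbouring genes and shared exons were looked up in GENCODE M21, since the kits used do not keep the strand and reads of overlapping exons can come from either gene. Mea1, which shares 276 exonic bases with Klhdc3, stayed at 131 to 254 CPM in light zone control libraries, where Klhdc3 was at most 0.185 CPM. Gng3, which shares 398 exonic bases with Bscl2, was at 11.1 to 17.7 CPM in light zone control and at 0 to 9.83 CPM in light zone treated libraries, opposite to Bscl2. Fuom shares 169 exonic bases with Prap1, which is not in the files. Fubp1, whose gene begins 119 bases from Dnajb4, was at 91.4 to 148 CPM in light zone control, and Rab23 beside Bag2 at 43.0 to 59.6 CPM. Vars2, which lies 137 bases from Gtf2h4, was at 1.72 to 4.40 CPM. None of these neighbours except Gng3 was off in any library.

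Deposited values lying midway between whole numbers occurred for 4 of the genes: in 4 libraries each for Fuom and Dnajb4, which have 3 and 4 curated RefSeq transcripts, in 2 for D2hgdh and in 1 for Klhdc3, which have 2 each. The 4 genes with 1 such transcript (Grina, Bag2, Gtf2h4, Gipc1) had none, and neither had Bscl2, with 3. No label or header used here states the counting method. If a deposited value averages over transcripts, which was not tested, the reads and counting intervals of genes with several transcripts are not those of whole reads. The 9 genes also tended to short transcripts rich in G and C, which the rule did not use. The longest transcript had a median of 1860 bases and 55.6% GC, against 3080 bases and 49.8% over the 11396 symbols with a protein-coding GENCODE transcript. It was shorter than that median in 8 of 9 genes (all but D2hgdh) and above it in GC in 8 of 9 (all but Dnajb4, at 39.04%). Of the 198 symbols with a transcript that were off in light zone control and on elsewhere, 123 were shorter and 122 were higher in GC, with medians of 2485 bases and 51.7%.

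Genes that work with the 9 were followed through lists made for each. Of 92 partners tested, edgeR called 0 in each comparison, and DESeq2 called Idh1 and Fuca1 for treatment in the light zone (1.59% of all genes were called higher there), with Idh1 among those called for zone in control (0.631% of all genes were called lower there). In the light zone 56 of the 92 were higher and 36 lower under treatment. TFIIH partners of Gtf2h4 were 4 higher and 5 lower (median log2 difference -0.15, against 0.10 over all genes). The BAG and HSP70 list was 12 higher and 1 lower (median 0.31), the DNAJB list 5 and 4 (0.46), and the ubiquitin ligase list of Klhdc3 9 and 7 (0.26). The lipid droplet list was 10 and 6 (0.72), the fucose list 6 and 5 (1.005), the GIPC list 3 and 3 (-0.32) and the TMBIM list 2 and 2 (0.09). Abundant partners of both kinds were high in every library: Hspa8, the constitutive HSP70, was at 1030 ± 27.9 CPM in light zone control and 1276 ± 566 CPM in light zone treated libraries, and Gtf2h5, another TFIIH subunit, at 467 ± 62.3 and 375 ± 221 CPM (SD, n = 3 each).

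The list around D2hgdh was the most one-sided of the 9 in the zone comparison of control libraries, with all 8 partners lower in the light zone (median log2 difference -1.28, against 0.00 over all genes). Idh1, the cytosolic isocitrate dehydrogenase, was itself off in light zone control, at 0.0463 to 0.230 CPM, and was at 0.137 to 35.1 CPM in dark zone control libraries. It was named after its values were seen. Under treatment in the light zone, 5 of the 8 were higher (median 0.48), and Idh1 was at 0.258 to 10.1 CPM. Etfb and Etfa, subunits of the flavoprotein that accepts electrons from D2hgdh, were at 350 ± 12.2 and 146 ± 40.4 CPM in light zone control and at 438 ± 134 and 249 ± 70.4 CPM in dark zone control libraries. Of all 12212 symbols, 995 (8.15%) were off in a whole group, whatever their level elsewhere. Of the 92 partners, 8 were: Idh1, Bag3 and Dgat1 in light zone control, Dgat2 and Fitm2 in dark zone control, Dnajb2 and Dnajb5 in both control groups, and Dnajb13 in dark zone control and light zone treated libraries.

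Among the 9 genes, patterns over the 12 libraries (Pearson r of log2 CPM, given as a description, since points share library and group) were most alike for Dnajb4 and Gipc1 (0.929), which were off in the same 4 libraries, and for D2hgdh and Bscl2 (0.914). Grina had r of -0.195 to 0.708 with the other 8. The genes were chosen by these same levels, Dnajb4, Gipc1 and D2hgdh as off in light zone control and Grina as off in dark zone control. High r among genes off in the same group, and low r for Grina, are therefore partly built in. Over all symbols, the closest to Klhdc3 were Gcfc2 (0.969) and Vgll4 (0.9498), which was off in the same 5 libraries. The closest to Bag2 was Zscan22 (0.959), off in the same 4 libraries, and the closest to Grina were Lpcat3 (0.919) and Rrp7a (0.913). Ruvbl2 (0.919) and Kmo (0.918) were closest to Gtf2h4, and Ska3 (0.910) to Fuom. These last 3, with lowest values of 21.03, 0.720 and 2.22 CPM, were off in no library.

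Markers of other cells differed between the groups as well. The summed level of 8 macrophage and monocyte markers was 6.31 to 43.7 CPM in light zone control and 7.40 to 16.6 CPM in dark zone control libraries, with C1qb and C1qc at 0 in all light zone control and C1qa and C1qb at 0 in all dark zone control libraries. The summed level of 6 T cell markers was 24.3 to 39.2 CPM in light zone control, with Cd4 and Cd8a at 0 in all 3, above the 6.03 to 7.64 CPM of dark zone control and the 5.97 to 21.7 CPM of dark zone treated libraries and within the 18.7 to 64.3 CPM of light zone treated ones. Most of the difference between the control groups lay in Cd3g alone, itself off in dark zone control. It was at 17.5 to 25.5 CPM in light zone control and at most 0.206 CPM in dark zone control. The summed level of 2 dendritic cell markers was 52.3 to 85.5 CPM in light zone control, 88.8 to 170 CPM in dark zone control and 12.9 to 43.8 CPM in light zone treated libraries. The summed level of 5 plasma cell markers was 9285 to 11545 CPM in light zone control, above the 1310 to 9107 CPM of light zone treated and the 1536 to 6431 CPM of dark zone treated libraries and overlapping the 7037 to 10495 CPM of dark zone control. In the 3 libraries that stood apart it was 1310 to 2411 CPM, against 6431 to 11545 CPM in the other 9. The part of these markers in the levels of the 9 genes was not tested. Light zone control libraries had 1455 to 1949 symbols under 0.5 CPM, dark zone control libraries 872 to 2105, and light zone treated replicates 1 and 3 had 2014 and 2216.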

How the data were processed

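RNA of 12 libraries was measured by sequencing SMART-Seq v4 cDNA made into libraries with Nextera XT, per the labels' protocols. Per the submitters' processing notes the authors used BWA and the build mm10 before deposit. No version of BWA, counting program or annotation is stated in the labels or headers used here. The authors deposited estimated counts (expected counts) per symbol, with no scaling, as the values show. Blank cells were read as 0 and values midway between whole numbers were rounded up. How midway values arose is not known here, so values of genes with several transcripts may be averages over them. CPM values use TMM-scaled library sizes. All 12 libraries entered a single edgeR 4.0.16 quasi-likelihood fit (R 4.3.3) with a term per group, after filterByExpr (minimum count 10, minimum total 15). Benjamini-Hochberg adjustment covered 12081 genes at 0.05. The fit was tested on simulated data, with pass conditions set at a fixed low spread. Its power at the spread of these data is not reported here. DESeq2 1.42.0 was an alternative. Log2 CPM values use a prior count of 2. Ratios pool the counts of a group, with exact 95% intervals or, at 0 counts, a floor of 3 counts over the group.

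Named genes were the 9 members, the 2 most abundant partners per list, flanking protein-coding genes, the 2 most similar genes per member and, per comparison and direction, the 3 most abundant other genes that were off and, in every library of the higher group, on. The text gives values for part of these partners, neighbours and similar genes, and the other partners only by counts. The members and lists were chosen with earlier results of these data known. Positions come from GENCODE M21 on mm10, and 7 members matched RefSeq promoter windows. Values of some partner and neighbouring genes are not reported here.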

Additional observations from a re-analysis of the deposited data

How the results depend on the processing

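EdgeR called 0 genes in the 4 comparisons under other scaling, without a filter, without any single replicate (0 to 0) and without the 3 treated libraries that stood apart; DESeq2 called 75, 222, 112 and 1. Replicate numbers are shared between groups, and the labels do not say whether they mark the same mice. Of 6 same-numbered pairs of libraries, 3 correlated over 0.1, with 0.533 for replicate 2 of the treated groups, which cannot decide this. The libraries were not taken as pairs, and with the replicate block edgeR also called 0 in each comparison. Scaling by library totals moved the median log2 difference of all genes from 0.06 to 0.51 for treatment in the dark zone and from 0.10 to 0.39 in the light zone, and of zone in treated libraries from 0.05 to -0.14. With an off threshold of 1 CPM, 524 symbols were off in a group and on in another in place of 325, of which 196 in place of 118 were off in light zone control and on in light zone treated, 109 in place of 69 on in dark zone control, and 97 in place of 54 off in dark zone control and on in dark zone treated. With off set at 3 counts or fewer these were 170, 60, 38 and 26, and the share with an off library within a group was 8.495% in place of 13.2%; 6 of the 9 genes then met the rule. With an on threshold of 10 CPM they were 124, 49, 22 and 13, and 5 of the 9 genes met the rule. Leaving out a replicate gave 318 to 747 (747 without light zone treated replicate 2, 638 without dark zone control replicate 3, 546 without light zone control replicate 3), 97 to 274, 63 to 183 and 54 to 292; the counts against light zone treated and dark zone control rose without any light zone control replicate (187, 203 and 274; 119, 127 and 183 for replicates 1, 2 and 3), and the last without dark zone control replicate 1 (85) or 3 (292). Fewer libraries then had to be off. Without the 3 treated libraries that stood apart the total was 1136. Under each replicate left out, 8 of the 9 genes met the rule. This is a weak check, since leaving out a library of the off group can only make the off condition easier to meet. Of 204 repeats of the members' log2 differences, 186 moved by less than 1 SD between replicates, 17 moved further, all with a prior count of 0.5 or 5, and 1 turned: Klhdc3 between zones in control, at -0.67, was -1.175 to 0.24 without single replicates, the latter without dark zone control replicate 3. The cause was not tested. The SD is that of each gene and comparison, and was 3.01 for Gipc1 under treatment in the light zone. That log2 difference, at 5.33, was 7.68 without light zone treated replicate 1 and 3.75 without replicate 2, both counted among the 186. Some repeats could not move, such as those leaving out a library outside the comparison.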
